A study of Mus musculus with 123 samples.

Results

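The genes described here are 38 mouse genes that fold proteins in the endoplasmic reticulum (ER), move them into it, degrade those that fail to fold, or sense and answer the stress of unfolded protein. They were taken as a list of symbols, and each gene was read from the transcript cluster (the set of array probes for a transcript) that the platform annotation gives to that symbol alone, with the brightest cluster kept where a gene had several. A cluster of their own was found for 37 of the 38. The remaining gene, Pdia4, shares its cluster with the symbol Mir704 and was not read. After a filter on low levels, 36 of the 38 were tested among 10942 genes of the liver. Sec61b did not pass, with levels between 2.25 and 4.09 (log2) on the HP diet and between 1.93 and 4.05 on the HS diet.

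Liver RNA was measured in female mice of 22 strains of the Collaborative Cross (CC), a panel of recombinant inbred mice with known founders, on Affymetrix Mouse Gene arrays with 1 array per mouse. The mice were 6 to 9 weeks old on arrival, received the synthetic diet AIN-76A for 2 weeks, and were then fed a high-protein (HP, n = 63) or a high-fat high-sucrose (HS, n = 60) diet for 8 weeks. Each strain had 4 to 6 mice and each strain and diet group 2 or 3, so that a single group of 1 strain on 1 diet is thinly replicated. No group was left on the synthetic diet, and the comparison is therefore of HP against HS and of the strains with each other.

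All 10 hepatocyte markers passed the filter, and their summed level lay between 15.25 and 15.59 (log2) in all mice. A mouse of CC059/TauUnc on HS was closest in expression to CC035/Unc, and a mouse of CC071/TauUnc on HP had an Xist level of 2.72, where the mice are female. Pancreatic acinar markers were summed to 10.47, 10.62 and 13.59 in 3 mice (CC037/TauUnc on HS, CC027/GeniUnc on HS and CC019/TauUnc on HP) against a median of 5.83, and the other mice did not exceed 7.79. Array medians ran from 2.97 to 3.16. Calls that change without these mice are given beside the results by diet and by strain. Tests were made with limma and were 2-sided, with p-values adjusted by Benjamini-Hochberg over all 10942 genes and a threshold of 0.05.

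Proteins that a hepatocyte secretes enter the ER through the Sec61 channel, are held by the chaperone BiP (Hspa5) and its J-domain partners, receive disulphide bonds from the protein disulphide isomerases, and, if they carry N-glycans, cycle through calnexin and calreticulin. Proteins that do not fold are drawn back into the cytosol by a ubiquitin ligase complex built on Sel1l and Syvn1, a process called ER-associated degradation (ERAD). When unfolded protein builds up, the membrane sensors IRE1 (Ern1), PERK (Eif2ak3) and ATF6 start the unfolded protein response (UPR), in which spliced XBP1 and cleaved ATF6 switch on chaperone and ERAD genes. In the liver, which secretes most plasma proteins, this machinery is abundant, and it is known to move with feeding and time of day.

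Known control elements of the response were looked for in the promoters of these genes. In the mouse RefSeq table (GRCm38.p6), which covers 250 bases before to 50 bases after each start, 33 of the 38 genes had a promoter. These genes had 40 promoters, with several for 4 of them. The ER stress response element (ERSE), to which NF-Y and ATF6 bind, was searched on both strands as CCAAT, 9 free bases and CCACG. It was present in 9 of the 33 genes (27.3%) and in 0.137% of all 27025 genes with a promoter (37 of them). By promoter, it was present in 0.119% of all 32851 (39 of them). The shorter ERSE-II, searched as ATTGG, 1 free base and CCACG, was present in 2 of the 33 genes. It was present in 0.0444% of all genes and in 0.0365% of all promoters. The XBP1 element UPRE, searched as TGACGTGG, was present in 1 of the 33 genes, in 0.714% of all genes and in 0.676% of all promoters. In all, 12 of the 33 genes held at least 1 of the 3 elements. The 3 elements share the letters CCACG on one of their strands, and no match in these genes overlapped another. A match is a description of letters, not a shown binding site, and many of the genes are on the list because they are known targets of this response.

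The whole promoters of Hspa5 (chr2:34771840-34772139, plus strand), Creld2 (chr15:88819396-88819695, plus strand) and Herpud1 (chr8:94386179-94386478, plus strand) are shown 5′ to 3′ because the results below turn on these genes, with the element in capitals. Hspa5 holds an ERSE at positions -65 to -47 from its start, Creld2 holds one on the opposite strand at -126 to -108, and Herpud1 holds an ERSE-II at -52 to -42.
Hspa5: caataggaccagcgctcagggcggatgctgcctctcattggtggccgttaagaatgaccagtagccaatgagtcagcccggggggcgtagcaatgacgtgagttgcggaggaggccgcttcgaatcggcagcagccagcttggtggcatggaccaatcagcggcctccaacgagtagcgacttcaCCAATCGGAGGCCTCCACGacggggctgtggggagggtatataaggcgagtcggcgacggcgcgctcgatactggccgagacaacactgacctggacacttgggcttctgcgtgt
Creld2: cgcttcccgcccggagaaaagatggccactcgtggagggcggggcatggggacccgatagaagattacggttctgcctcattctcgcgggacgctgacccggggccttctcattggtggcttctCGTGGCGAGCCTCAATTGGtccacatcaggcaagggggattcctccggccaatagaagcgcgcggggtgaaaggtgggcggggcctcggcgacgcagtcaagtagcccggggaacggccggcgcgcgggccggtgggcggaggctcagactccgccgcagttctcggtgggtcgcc
Herpud1: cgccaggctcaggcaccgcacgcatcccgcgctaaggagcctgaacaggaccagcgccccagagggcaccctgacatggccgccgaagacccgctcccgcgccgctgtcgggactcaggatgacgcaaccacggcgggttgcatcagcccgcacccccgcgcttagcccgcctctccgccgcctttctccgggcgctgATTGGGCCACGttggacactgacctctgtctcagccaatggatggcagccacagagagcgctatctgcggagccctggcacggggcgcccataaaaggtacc

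For the other genes with an element, the match is given in capitals with 12 bases on either side, 5′ to 3′ on the strand of the gene, so that the shared ends and the free middle can be compared. The ERSE of Dnajc3 (positions -105 to -87), Pdia6 (-98 to -80), Canx (-145 to -127) and Syvn1 (-44 to -26) and the upstream match of Hsp90b1 (-212 to -194) read along the gene. Those of Calr (-162 to -144) and Derl3 (-156 to -138) and the downstream match of Hsp90b1 (-107 to -89) read on the opposite strand and therefore begin with CGTGG. Dnajb11 holds an ERSE-II just after its start (positions 8 to 18), and Morf4l2 holds the UPRE at -70 to -63.
Dnajc3: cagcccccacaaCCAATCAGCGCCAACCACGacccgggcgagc
Pdia6: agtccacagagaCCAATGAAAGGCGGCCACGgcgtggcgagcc
Canx: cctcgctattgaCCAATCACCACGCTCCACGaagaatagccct
Syvn1: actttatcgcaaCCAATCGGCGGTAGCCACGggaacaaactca
Hsp90b1 upstream: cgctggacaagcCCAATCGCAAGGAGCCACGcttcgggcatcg
Hsp90b1 downstream: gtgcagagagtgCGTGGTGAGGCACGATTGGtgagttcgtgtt
Calr: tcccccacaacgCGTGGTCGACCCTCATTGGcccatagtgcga
Derl3: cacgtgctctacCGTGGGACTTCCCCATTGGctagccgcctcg
Dnajb11: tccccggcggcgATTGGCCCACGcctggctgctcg
Morf4l2: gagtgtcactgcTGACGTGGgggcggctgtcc

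Differential expression by diet was assessed to ask whether the ER folding machinery differed between mice fed protein and mice fed fat and sucrose. Mostly chaperones and folding enzymes were called lower on the HP diet, by 7.47 to 18.3 percent, and the J-domain co-chaperone Dnajb9 was the exception, being higher by 15.2 percent. Of the 36 genes, 9 were called lower and 1 higher on HP, where 5.13 and 6.28 percent of all 10942 genes were called lower and higher and 11.4 percent in either direction. The difference of HP minus HS was below 0 in 30 of the 36, where 53.5 percent of all genes were below 0, and its median was -0.09 (log2) against -0.01 for all genes. Levels on the diets overlapped for all 36 genes.

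Among the chaperones, Creld2, a disulphide-bonding cofactor of the UPR, differed most. Its level ran from 6.24 to 8.64 with a median of 7.22 on HP, and from 6.46 to 8.68 with a median of 7.50 on HS. The diets overlapped over almost the whole range, but 51 of 63 HP mice lay below the HS median. The difference was -0.29 ± 0.085 (log2, SE, n = 63 and 60, adjusted p = 0.013), and the HP mean was the lower in 20 of 22 strains.

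Hspa5, the BiP chaperone itself, ran from 7.36 to 8.80 (median 8.04) on HP and from 7.62 to 8.85 (median 8.16) on HS, with 50 of 63 HP mice below the HS median. The shift was small beside the spread, at -0.14 ± 0.049 (SE) with SDs of 0.277 and 0.272, and was called at an adjusted p of 0.043. It was in the same direction in 17 of 22 strains. The call was marginal. Without the 3 mice with pancreatic transcripts the difference of Hspa5 by diet was still -0.14, with an adjusted p of 0.055. The call was lost in 10 of the 22 fits that left out a strain. It was lost under 5 of 12 other settings, the one without these mice among them.

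The BiP co-chaperone Dnajb11 (-0.17 ± 0.055, adjusted p = 0.035) and the secreted, stress-induced factor Manf (-0.17 ± 0.057, adjusted p = 0.037) fell to a similar extent. Manf ran from 4.07 to 5.53 on HP and from 4.07 to 5.99 on HS, and Dnajb11 from 6.94 to 8.52 and from 6.90 to 8.49. The diets overlapped for both genes, with 46 and 44 of 63 HP mice below the HS median, and the highest Manf level was that of an HS mouse. Without the 3 mice with pancreatic transcripts the difference of Dnajb11 by diet had an adjusted p of 0.059.

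Other chaperones did not pass the test. Hyou1, the large BiP-related chaperone, differed by -0.20 ± 0.079 (adjusted p = 0.081), and Sdf2l1, which works with BiP on misfolded protein, by -0.17 ± 0.099 (adjusted p = 0.30) with the widest spread of the group (SD 0.613 on HP). Hsp90b1 (GRP94) differed by -0.05 ± 0.026 (adjusted p = 0.27). Dnajc3, a J-domain partner of BiP, differed by -0.04 ± 0.043 (adjusted p = 0.63).

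Dnajb9 (ERdj4), a J-domain protein that recruits BiP to IRE1 and to ERAD substrates, ran the opposite way. It lay between 6.90 and 8.95 (median 7.77) on HP and between 6.88 and 8.46 (median 7.57) on HS. The mice again overlapped, with 44 of 63 HP mice above the HS median. The difference was 0.20 ± 0.061 (SE, adjusted p = 0.016), and HP was the higher in 17 of 22 strains.

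In the glycoprotein folding cycle, calreticulin (Calr), the lumenal lectin chaperone, had the smallest adjusted p of all 36 genes. Its level ran from 10.45 to 11.58 (median 10.90) on HP and from 10.50 to 11.55 (median 11.06) on HS, with 50 of 63 HP mice below the HS median. The difference was -0.14 ± 0.038 (SE, adjusted p = 0.0060), lower on HP in 16 of 22 strains. Uggt1, the enzyme that sends unfolded glycoproteins back to calreticulin, was also lower (-0.13 ± 0.044, adjusted p = 0.035). The membrane lectin Canx differed by -0.05 ± 0.026 (adjusted p = 0.24).

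Of the 6 disulphide isomerases, prolyl isomerases and other folding proteins tested, 2 were lower on HP. Pdia6 ran from 8.88 to 10.49 (median 9.79) on HP and from 9.04 to 10.36 (median 9.92) on HS. Its difference was -0.16 ± 0.051 (SE, adjusted p = 0.021), and 47 of 63 HP mice lay below the HS median. Pdia3, the isomerase that works with calreticulin on glycoproteins, ran from 9.09 to 10.34 and from 9.28 to 10.22, a difference of -0.12 ± 0.040 (SE, adjusted p = 0.041). P4hb, Ppib, Erp44 and Fkbp2 differed by -0.03, -0.07, -0.02 and -0.03 and were not called (adjusted p from 0.33 to 0.71).

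**Figure D1:**
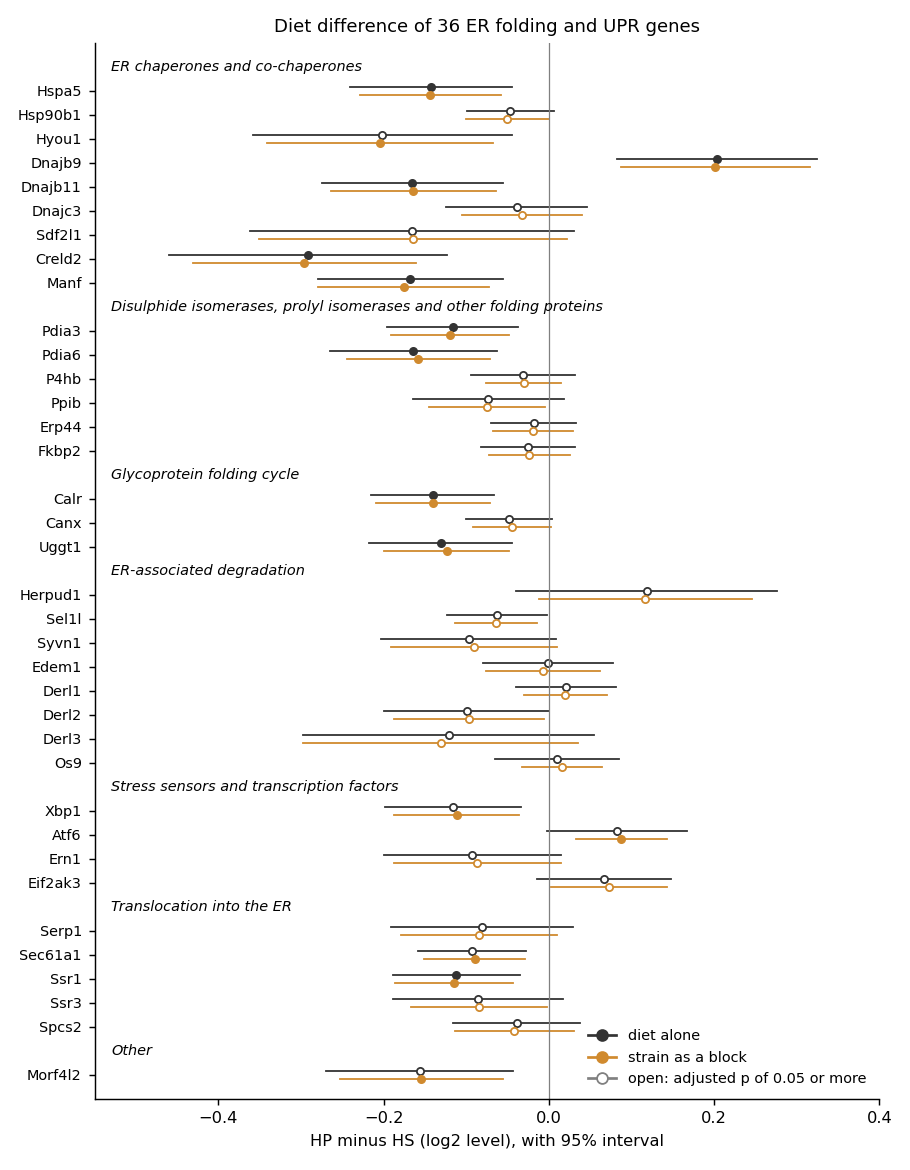
HP minus HS difference (log2, x axis) of the 36 genes with its 95% interval, by role, from the fit of diet alone (black) and with strain as a block (orange), with filled points for an adjusted p under 0.05. Most points lie left of 0, down to -0.29 for Creld2, while Dnajb9 lies at 0.20 and Herpud1, Atf6, Eif2ak3, Derl1 and Os9 lie right of 0 without a call by diet alone.

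None of the 8 ERAD genes and none of the 4 sensors and transcription factors was called by diet alone. Herpud1, the membrane adaptor that assembles the ERAD complex and a strong UPR target, differed by 0.12 ± 0.080 (adjusted p = 0.37), and Os9 (a lectin that reads trimmed glycans), Edem1 (a mannosidase-like ERAD factor) and Derl1 (a channel subunit) by 0.01, -0.001 and 0.02. Xbp1, the transcription factor activated by IRE1, ran from 8.92 to 9.96 on HP and from 8.74 to 10.21 on HS, and its difference of -0.12 ± 0.042 fell just outside the threshold (adjusted p = 0.052). Among the genes of translocation, Ssr1, a subunit of the complex beside the Sec61 channel, was lower on HP (-0.11 ± 0.039, adjusted p = 0.044), and Sec61a1, the channel itself, fell just outside (-0.09 ± 0.033, adjusted p = 0.051). The next genes outward from the threshold were Morf4l2 (-0.16 ± 0.057, adjusted p = 0.057), a chromatin protein, and Hyou1. Without the 2 mice that stood apart, Xbp1 by diet (adjusted p = 0.043) and Morf4l2 by diet (adjusted p = 0.040) were called lower.

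When strain entered as a block, so that mice were compared within strains, 15 of the 36 genes were called (13 lower, 2 higher). Of all genes, 23.2 percent were called with the block, 11.7 percent lower and 11.5 percent higher on HP. Joining the 10 were Hyou1, Xbp1, Sec61a1 and Morf4l2, all lower on HP, and Atf6, the sensor and transcription factor, which was higher (0.09 ± 0.028, adjusted p = 0.013). Atf6 was the higher on HP in 16 of 22 strains, and 46 of 63 HP mice lay above the HS median of 7.94, within ranges of 7.58 to 8.69 on HP and 7.56 to 8.54 on HS. With the block, the sensors and transcription factors were split, with Xbp1 lower, Atf6 higher, and Ern1 (-0.09 ± 0.051, adjusted p = 0.23) and Eif2ak3 (0.07 ± 0.035, adjusted p = 0.13) not called. The arrays do not separate spliced from unspliced Xbp1.

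**Figure D2:**
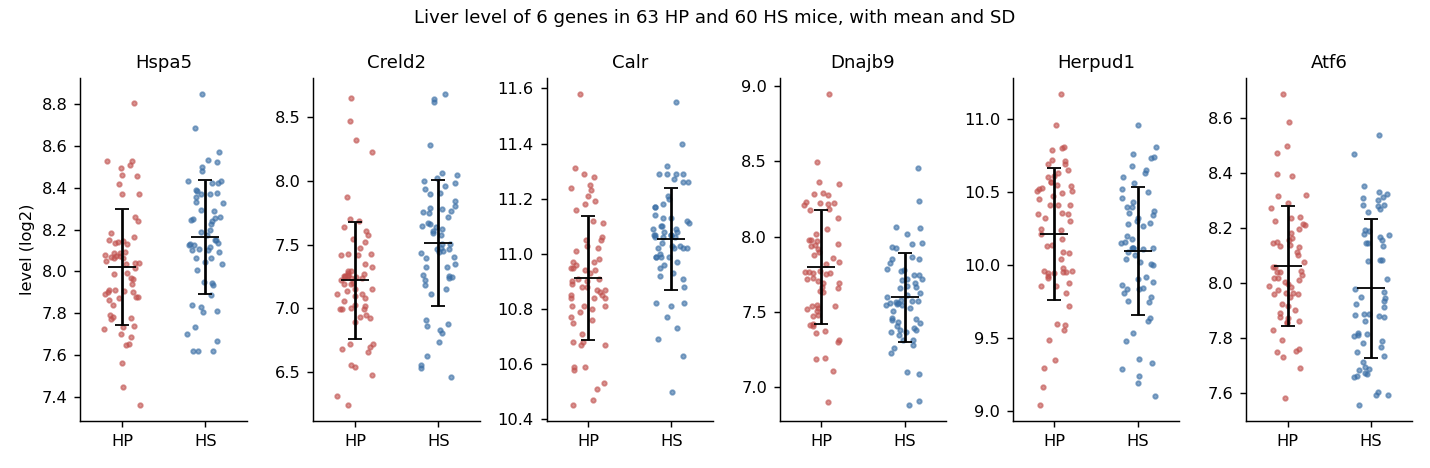
Liver level (log2, y axis, scaled per gene) of 6 genes in each of 63 HP and 60 HS mice, with the mean and SD. The clouds overlap for every gene, with Hspa5, Creld2 and Calr lower and Dnajb9 higher on HP by 0.14 to 0.29 between means.

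Other measures moved with diet as well. A clock gene score (the mean of 5 early-phase genes such as Arntl and Npas2 minus the mean of 7 late-phase genes such as Dbp and Ciart, in SD units) was -0.36 ± 1.62 (SD) on HP and 0.38 ± 1.56 on HS (permutation p = 0.011, 2-sided). With that score as a covariate, 1 of the 36 genes was called, Dnajb9 (0.19, adjusted p = 0.042), and Creld2 (-0.24, adjusted p = 0.057), Calr (-0.10, adjusted p = 0.056) and Hspa5 (-0.09, adjusted p = 0.23) were not. All 11 markers of Kupffer cells, the macrophages of the liver, were lower on HP as well (3 called, 10 with strain as a block, median difference -0.24). Their summed level ran from 9.38 to 11.88 on HP and from 10.26 to 12.45 on HS, and none of them failed the filter. With it as a covariate, 3 genes were called by diet, Creld2 and Calr lower and Dnajb9 higher. With strain as a block, 4 genes were called beside the clock score (Creld2 and Calr lower, Dnajb9 and Atf6 higher) and 4 beside the Kupffer markers (Sel1l, Syvn1 and Ern1 lower, Dnajb9 higher). The shares of all genes called (11.4 percent, and 23.2 percent with the block) belong to the fits without these covariates. The shares under the fits with these covariates are not given here, so the counts with covariates have no background. From these counts alone, a loss of calls shared by all genes cannot be told from one particular to these genes. In whole liver, fewer cells of a type and less RNA per cell cannot be told apart.

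Dnajb9 was the only gene of the 10 whose call held under all 12 other settings and in each of the 22 fits that left out a strain (adjusted p at most 0.042). Creld2, Calr and Pdia6 also held in every fit without a strain. The other 6 calls each failed without some of the strains, and the count of called genes fell to 4 without CC004/TauUnc, CC035/Unc, CC036/Unc or CC045/GeniUnc and rose to 14 without CC019/TauUnc. With strain as a block the count stayed between 13 and 17.

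The genes of neighbouring pathways were given the same test, and their counts are to be read against the 5.13 percent of all genes called lower and the 6.28 percent called higher. Among 31 genes of N-glycosylation and glycan trimming, 4 were lower on HP and none higher, among them the oligosaccharyltransferase subunit Ddost (-0.11 ± 0.034, adjusted p = 0.015) and the glucosyltransferase Alg8 (-0.15 ± 0.047, adjusted p = 0.020). Among 41 genes of ER to Golgi transport, 6 were lower and 1 higher, led by the coat subunit Sec13 (-0.25 ± 0.052, adjusted p = 2.0e-04) and the cargo receptor Tmed9 (-0.20 ± 0.046, adjusted p = 8.1e-04). Among 25 secreted liver proteins, 5 were lower and none higher, and the inter-alpha-trypsin inhibitor chain Itih1 was lower on HP in all 22 strains (-0.22 ± 0.035, adjusted p = 6.5e-07). The ferroxidase ceruloplasmin (Cp) was also lower (-0.15 ± 0.032, adjusted p = 3.9e-04).

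The remaining lists had 2 to 5 called genes each. Of 22 further UPR and ATF4-CHOP genes, 3 were lower and 1 higher on HP. The one that was higher, Trib3, a pseudokinase induced by ATF4, had the largest difference named here (0.52 ± 0.11, adjusted p = 2.0e-04, higher in 21 of 22 strains), and Atf6b (-0.17 ± 0.042, adjusted p = 0.0020) and Sesn2 (-0.27 ± 0.080, adjusted p = 0.016) were lower. Of 35 other folding and redox enzymes, 4 were higher and 1 lower, with the disulphide oxidase Ero1a higher (0.14 ± 0.043, adjusted p = 0.019) and the sulfhydryl oxidase Qsox1 lower (-0.21 ± 0.066, adjusted p = 0.022). Of 32 other ERAD genes, 3 were higher and 2 lower, with the selenoprotein Selenos higher (0.19 ± 0.055, adjusted p = 0.011) and Edem2 lower (-0.14 ± 0.043, adjusted p = 0.014). Of 21 other translocation genes, 2 were lower, Srpr (-0.13 ± 0.031, adjusted p = 0.0025) and Sec62 (-0.08 ± 0.021, adjusted p = 0.0042). Of 17 cytosolic heat shock genes, Stip1 (-0.18 ± 0.045, adjusted p = 0.0027) and Hsph1 (-0.26 ± 0.081, adjusted p = 0.023) were lower and the mitochondrial chaperonin Hspd1 was higher (0.09 ± 0.030, adjusted p = 0.028).

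More of the 36 genes were called by strain than by diet, while Dnajb9 was called by diet and not by strain. Of the 36 genes, 31 differed among the 22 strains, which is near the background of 81.3 percent of all genes. The share of variance that lay between strains (intraclass correlation) had a median of 0.247 for these genes and 0.286 for all genes, and the range of strain means had a median of 0.64 (log2) against 0.71. The 5 not called were Hsp90b1, Dnajb9, Sdf2l1, Syvn1 and Erp44 (adjusted p from 0.057 to 0.12). The strain call of Derl3 (limma F, adjusted p = 0.049) was lost in 13 of 22 fits without a strain and under 8 of 11 other settings. Derl3 was dim, with medians of 3.5 on HP and 3.6 on HS, below the mean of cluster medians (4.08) that the filter used.

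The strongest strain pattern was that of Os9, the ERAD lectin, with an intraclass correlation of 0.614 (F = 9.27, adjusted p = 8.9e-15). In CC063/Unc its mean was 8.87 ± 0.118 (SD, n = 4) with mice from 8.74 to 8.98, and in CC040/TauUnc it was 9.47 ± 0.040 (SD, n = 6) with mice from 9.42 to 9.53. These strains did not overlap. A strain with a wide spread, CC008/GeniUnc (8.89 ± 0.308, n = 5), stood next to the lowest.

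Atf6 came next, at 0.603 (F = 8.33, adjusted p = 1.9e-13). It was lowest in CC001/Unc (7.73 ± 0.152, SD, n = 6, mice from 7.58 to 7.96) and highest in CC019/TauUnc (8.40 ± 0.167, n = 5, mice from 8.18 to 8.58) and CC027/GeniUnc (8.36 ± 0.190, n = 6). The highest neighbours differed by less than their SD, while the lowest and highest strains did not overlap.

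P4hb, the classic protein disulphide isomerase, had an intraclass correlation of 0.530 (F = 6.64, adjusted p = 7.4e-11) within a narrow range, from 10.82 ± 0.083 (SD, n = 5) in CC012/GeniUnc to 11.34 ± 0.096 (n = 4) in CC063/Unc. Ppib (cyclophilin B), which isomerizes prolines in new chains, ran from 9.65 ± 0.163 (n = 6) in CC004/TauUnc to 10.35 ± 0.132 (n = 6) in CC036/Unc (0.428, F = 4.96, adjusted p = 5.1e-08). For both genes the mice of the lowest and the highest strain did not overlap. Here and for the other genes, the strains compared were picked as the extremes of the same strain means. A lack of overlap between them is therefore a description and carries no test. Sequence differences between strains under the probes can also change an array level, and their part was not tested.

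Of the 9 chaperones, 6 differed among strains. Creld2 spanned the widest range, from 6.61 ± 0.261 (SD, n = 6) in CC032/GeniUnc to 8.10 ± 0.438 (n = 6) in CC027/GeniUnc (F = 3.68, adjusted p = 1.1e-05). The lowest mouse of CC027/GeniUnc (7.58) lay above every mouse of CC032/GeniUnc. Hyou1 ran from 7.62 ± 0.187 (n = 4) in CC024/GeniUnc to 8.98 ± 0.445 (n = 6) in CC027/GeniUnc (F = 2.67, adjusted p = 9.3e-04). Hspa5 itself ran only from 7.76 ± 0.318 (n = 5) in CC041/TauUnc to 8.41 ± 0.214 (n = 6) in CC006/TauUnc (F = 2.63, adjusted p = 0.0011). Neighbouring strains in the Hspa5 order differed by at most 0.16, below the SD of 0.250 within strains, and the mice of the lowest and the highest strain overlapped between 8.20 and 8.24.

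CC027/GeniUnc had the highest strain mean for 9 of the 36 genes (Hsp90b1, Hyou1, Dnajb11, Dnajc3, Creld2, Pdia3, Calr, Uggt1 and Syvn1) and a mean rank of 18.3 of 22. CC036/Unc followed at 16.1, with the highest mean of Xbp1, Sec61a1, Spcs2 and Ppib. The lowest mean ranks were 6.25 in CC041/TauUnc and 7.31 in both CC019/TauUnc and CC032/GeniUnc. CC019/TauUnc held the lowest mean of 8 genes, most of them chaperones and translocation genes (Hsp90b1, Dnajb11, Sdf2l1, Manf, Pdia3, Calr, Ssr1 and Spcs2), and at the same time the highest mean of the sensors Atf6 and Ern1. Leaving out CC019/TauUnc or CC027/GeniUnc each ended the strain calls of Manf, Pdia3 and Calr. These ranks describe strains of 4 to 6 mice and carry no test of their own. Of the 3 mice with pancreatic transcripts, 1 was of CC027/GeniUnc and 1 of CC019/TauUnc, and without the 3 mice the count of strain calls was 28 in place of 31, with those of Calr, Ern1 and Derl3 lost. Without the 2 mice that stood apart the count was 31, with Ssr1 lost and Syvn1 gained.

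**Figure D3:**
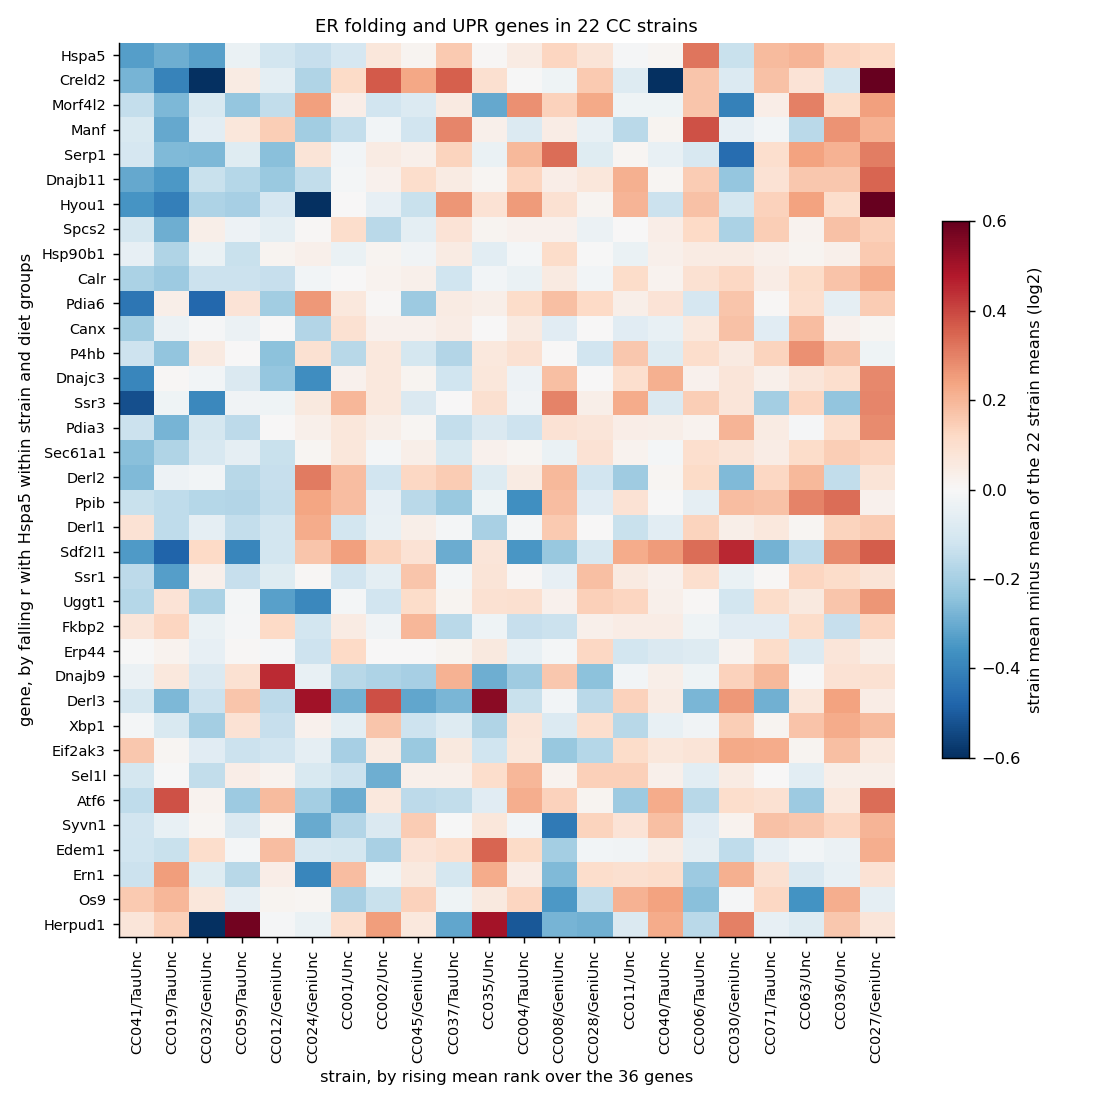
Strain means of the 36 genes (rows) in the 22 strains (columns, by rising mean rank), as the difference from the mean of the strain means (log2), with colours ending at 0.6 in either direction. The chaperones at the top are mostly blue in CC041/TauUnc, CC019/TauUnc and CC032/GeniUnc and red in CC027/GeniUnc, while Atf6, Ern1, Os9 and Herpud1 at the bottom follow other orders.

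Herpud1 had its own strain order. It was lowest in CC032/GeniUnc (9.52 ± 0.367, SD, n = 6) and CC004/TauUnc (9.65 ± 0.407, n = 6) and highest in CC059/TauUnc (10.74 ± 0.152, n = 6) and CC035/Unc (10.66 ± 0.209, n = 5), with F = 3.83 and an adjusted p of 6.1e-06. Mice ran from 9.04 to 9.86 in CC032/GeniUnc and from 10.49 to 10.96 in CC059/TauUnc, so that these strains did not overlap. The mouse of CC059/TauUnc that was closest to another strain is included here.

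The effect of diet was not found to depend on strain for any of the 36 genes. The interaction of strain and diet called 0 of 36 (limma F test over 21 terms), 0 had an unadjusted p under 0.05, and the lowest unadjusted p was 0.083 (Syvn1), where 0.0183 percent of all genes were called and 4.79 percent had an unadjusted p under 0.05. The diet difference of a single strain rests on 2 or 3 mice per diet. The median HP minus HS difference of the 36 genes was below 0 in 15 of the 22 strains, from -0.25 in CC035/Unc, where 30 of 36 genes were lower on HP, to 0.09 in CC006/TauUnc, where 26 were higher.

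Co-variation across mice was examined next, to ask which of these genes rise and fall together beyond strain and diet. Each level was set against the mean of its strain and diet group, and the deviations were correlated with those of Hspa5 over all mice of both diets. Of the 35 other genes, 21 had r over 0.5, where 2.03 percent of all genes did, and the median r was 0.58 against 0.01 for all other genes. With permutation of the deviations within groups (100000 permutations, 2-sided, adjusted over the 35 relations), 27 were positive and 1 negative past the threshold. In the levels of all mice, without removing group means, 19 had r over 0.5 (0.722 percent of all genes), 25 were positive and 1 negative. Within HP mice alone 22 and within HS mice alone 26 were positive past the threshold. The permutation test was run on the 35 relations only, so the counts past the threshold have no share of all genes beside them. The weakest positive r past it in deviations, that of Xbp1 (0.24), stood at rank 2268 of 10941 genes.

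Creld2 followed Hspa5 most closely (r = 0.80, rho = 0.79, r = 0.78 without the 2 farthest mice), with Morf4l2 (r = 0.79, rho = 0.76, 0.78 without them), Manf (0.79, 0.77, 0.79) and Serp1 (0.79, 0.80, 0.79) beside it, each with a permutation p of 1e-05, the smallest that the permutations can give (adjusted 1.7e-05). Serp1 protects newly made membrane proteins at the translocon. Dnajb11 and Hyou1 (r = 0.77 each), the signal peptidase subunit Spcs2 (0.74), Hsp90b1 (0.72), Calr (0.71) and Pdia6 (0.71) were next. Of the 10 genes nearest to Hspa5 among all 10941 others, 7 were from the list, and of the 50 nearest, 16. The levels of all mice gave r = 0.72 for Creld2, 0.77 for Dnajb11 and 0.74 for Hyou1.

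Some of the closest pairs did not include Hspa5. Creld2 and Hyou1 correlated at 0.88, Calr and Pdia3 at 0.88, and Canx and Pdia6, Calr and Pdia6, and Dnajb11 and Hyou1 at 0.86. Of the 630 pairs, 223 (35.4 percent) had r over 0.5, and 21 genes had at least 15 partners at that level. These pairs share arrays, and their correlations are given as descriptions over all mice.

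**Figure D4:**
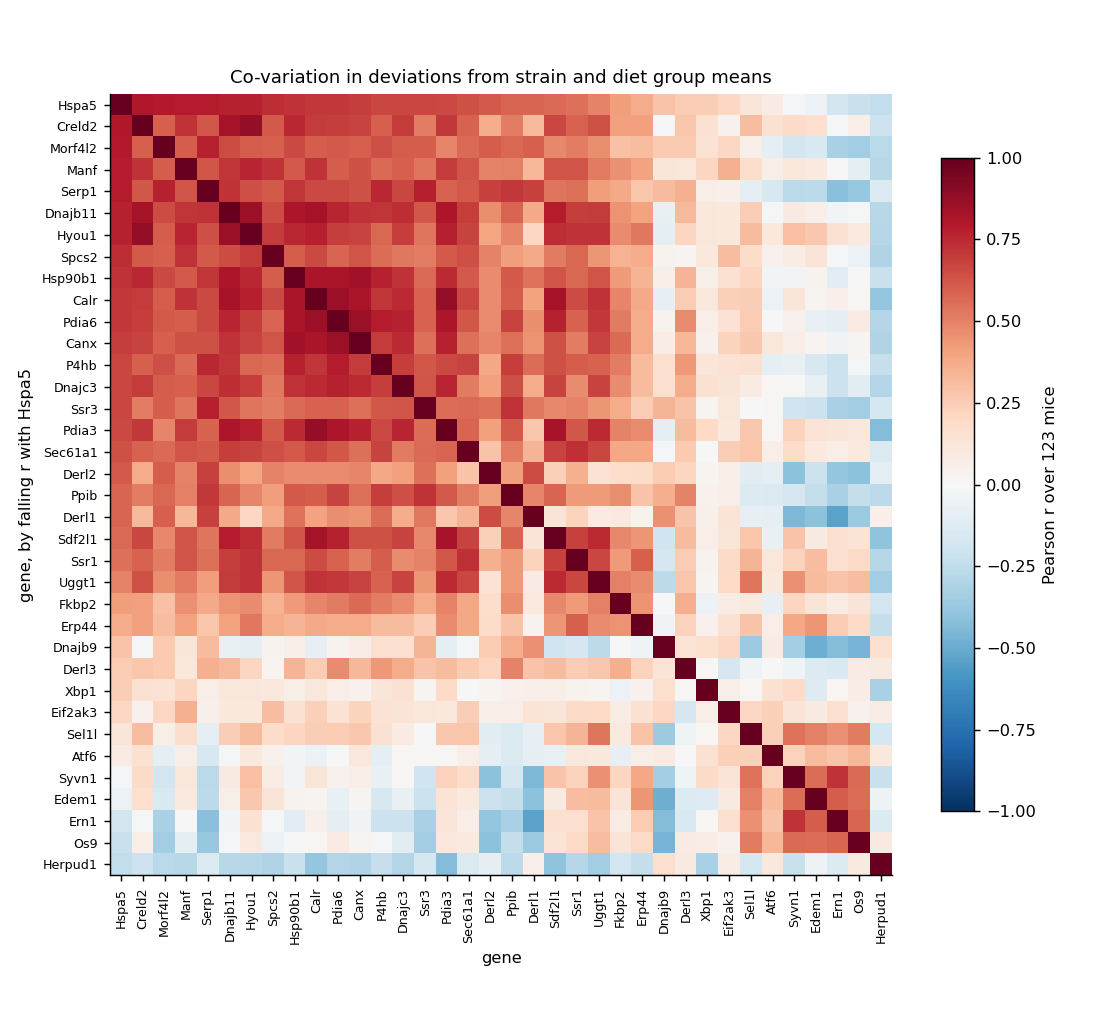
Pearson r over all mice between the deviations of each pair of the 36 genes from their strain and diet group means, with genes in order of falling r with Hspa5. A block of chaperones, folding enzymes and translocation genes is red at the upper left, Syvn1, Edem1, Ern1, Os9 and Sel1l form a small red block at the lower right, and Herpud1 in the last row is blue against most of the others.

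The 4 sensors and transcription factors and 6 of the 8 ERAD genes had r under 0.5 with Hspa5, while the ERAD channel subunits Derl1 (r = 0.58) and Derl2 (0.62) were above it. For Atf6 (r = 0.08, permutation p = 0.57), Edem1 (-0.06, p = 0.62), Syvn1 (-0.01, p = 0.92), Sel1l (0.12, p = 0.35), Ern1 (-0.19, p = 0.13) and Eif2ak3 (0.21, p = 0.096) no correlation with Hspa5 passed the threshold. Xbp1 (r = 0.24, adjusted permutation p = 0.022), Derl3 (0.26, adjusted p = 0.026) and Dnajb9 (0.29, adjusted p = 0.021) were weakly positive, and for Dnajb9 rho was 0.22 and did not pass (adjusted p = 0.072). None of Dnajb9, Xbp1, Atf6, Eif2ak3, Derl3 and Herpud1 had r over 0.5 with any of the 35 other genes. The correlations of Derl3 rest on the low level described above.

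A smaller group of 5 genes also varied together, though not wholly apart from the chaperones and folding genes. With all 5, Uggt1 (r from 0.29 to 0.53) and Hyou1 (from 0.10 to 0.32) were positive too. Ern1, Syvn1, Edem1, Os9 and Sel1l had r between 0.46 and 0.72 in their 10 pairs, highest for Ern1 and Syvn1. Syvn1, Sel1l, Os9 and Edem1 act in ERAD, and Ern1 encodes the stress sensor IRE1. Against Derl1, Derl2 and Dnajb9 the 5 genes had negative r in all 15 pairs, from -0.53 to -0.08. The 5 genes and those set against them were chosen after the correlations were seen and have no test. Serp1 (-0.42 to -0.09), Ppib (-0.33 to -0.13) and Ssr3 (-0.34 to -0.006) also had negative r with all 5 genes. Array medians moved with this contrast. Their deviations correlated with those of the 5 genes at 0.06 (Sel1l) to 0.30 (Ern1) and with those of Derl1, Derl2 and Dnajb9 at -0.39, -0.36 and -0.32, and with Hspa5 at -0.36. Their part in the contrast was not tested. With arrays centred on their medians, 25 of the 35 genes were positive with Hspa5 in the levels of all mice, as without it.

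Kupffer markers also moved with the group. The deviations of their summed level correlated with Hspa5 at 0.49, with Ppib at 0.53, with Ssr3 at 0.48 and with Serp1 at 0.47, and with Ern1 and Os9 at -0.35. Taking this level out of the deviations left 27 of 35 genes positive with Hspa5 past the threshold and a median r of 0.53, against 27 and 0.58. Leaving out the 3 mice with pancreatic transcripts, or the 2 mice that stood apart, left 25 positive in the levels of all mice, as with all mice.

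Outside the list, the 10 genes that followed Hspa5 most closely within groups came from the ER and from other parts of the cell. They included Spcs3 (r = 0.75), a signal peptidase subunit, Scfd1 (0.75), a factor of ER to Golgi transport, Slc33a1 (0.73), the acetyl-CoA transporter of the ER, Ostc (0.70) and Rpn1 (0.70), subunits of the oligosaccharyltransferase, and Sec13 (0.69), a coat subunit. The cytosolic chaperonin subunit Cct3 (0.70), the sialic acid synthase Nans (0.70), the asparaginyl-tRNA synthetase Nars (0.69) and Ift20 (0.68), a protein of the Golgi and cilium, completed the 10 nearest. Of these, Slc33a1 (-0.18 ± 0.050, adjusted p = 0.0089), Cct3 (-0.15 ± 0.033, adjusted p = 6.3e-04) and Sec13 were lower on HP.

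Against the clock gene score the genes differed in sign. In deviations from group means, 23 of the 36 genes were positive and 1 negative past the threshold (permutation within groups, adjusted over 36 relations). Of the 36, 7 had r over 0.5 in either direction, where 2.76 percent of other genes did. No share of other genes is given for the counts of 23 and 1, so these have no background. The negative one was Herpud1, at r = -0.77 (rho = -0.73, -0.75 without the 2 farthest mice, permutation p = 1e-05, adjusted 4.0e-05). It stood at rank 20 of 10930 genes by the size of r. In the levels of all mice its r was -0.74.

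The positive side was led by Spcs2 (r = 0.57, rho = 0.59), Pdia3 (0.57, 0.54), Manf (0.54, 0.55), Calr (0.53, 0.49), Sdf2l1 (0.51, 0.49) and Canx (0.50, 0.53), with Hspa5 at 0.48 (rho = 0.51, permutation p = 1e-05, adjusted 4.0e-05). Herpud1 and Hspa5, both with an exact stress element in the promoter shown above, had opposite signs of r with the score and were negatively related to each other (r = -0.25, rho = -0.28, adjusted permutation p = 0.017). The sign of this relation changed with the score taken out of both genes, to r = 0.23 in deviations and, from -0.15, to 0.31 in the levels of all mice. For Dnajb9 (r = -0.03, permutation p = 0.74), Atf6 (0.00, p = 0.99) and Os9 (-0.08, p = 0.45) no relation to the score passed the threshold. With the score taken out of the deviations, 26 of 35 genes were positive with Hspa5, with a median r of 0.54.

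**Figure D5:**
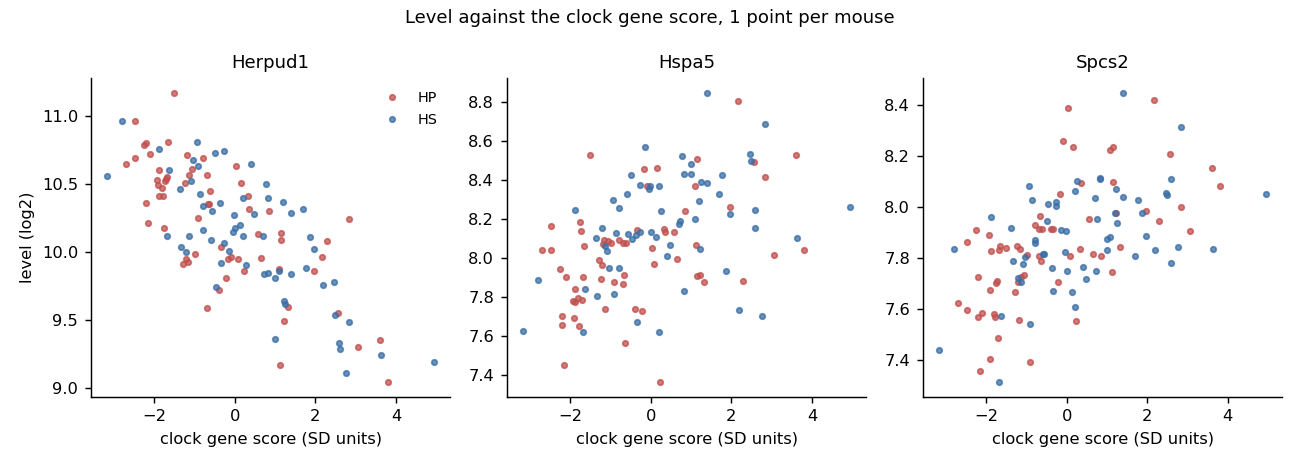
Level (log2, y axis) of Herpud1, Hspa5 and Spcs2 against the clock gene score (x axis, SD units) in 63 HP and 60 HS mice. Herpud1 falls along the score and Hspa5 and Spcs2 rise, on both diets, with r of -0.74, 0.45 and 0.56 over all mice.

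Set beside the promoters, the 9 genes with an exact ERSE had a median HP minus HS difference of -0.12 (4 called lower) and the 22 others that passed the filter and had a promoter a median of -0.08 (4 called lower). The median r with Hspa5 was 0.70 for 8 of the 9, leaving out Hspa5 itself, from -0.01 for Syvn1 to 0.80 for Creld2, and 0.52 for the 22 others. The 22 others lack an exact ERSE but include Dnajb11 and Herpud1, which hold an ERSE-II, and Morf4l2, which holds the UPRE. No test was made of these medians.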

How the data were processed

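The authors deposited log2 intensities of 41345 transcript clusters, made from Affymetrix Mouse Gene 2.1 ST arrays of HP and HS livers by the robust multi-array average (RMA), in which background is subtracted, arrays are given 1 shared distribution and probes are summarized. The submitters' processing notes name RMA and Affymetrix Expression Console, with versions not given in the sources used here. Quantile normalization hides a change shared by most genes. Every column was matched to a mouse through its sample identifier, and GEO's labels gave each mouse a strain and a diet. Clusters with 1 symbol in the platform annotation (23521) were used, and those with several (1820) or none (16004) were left unnamed. A cluster passed if its median, or its level in more than 12.5 percent of mice, exceeded the mean of cluster medians (4.08), which left 10942 genes, each by its brightest cluster. Morf4l2, Ssr1, Spcs2, Edem1 and Derl2 had a dimmer cluster too, correlated with the brighter at 0.32 to 0.68 over mice.

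Diet, strain and their interaction were fitted in R 4.3.3 by limma 3.58.1 (lmFit, then eBayes). The study's methods name limma by diet or strain and no covariate, so diet alone was the main term here, with strain as a block as an alternative. Correlations, permutations and promoter searches used Python 3.11.15, NumPy 2.4.6, pandas 2.3.3 and SciPy 1.17.1. The fits by diet, by strain and of their interaction, and the permutation test without groups, were checked on simulated data. The promoter search was checked on a built sequence. The fits with a block or a covariate and the permutation within groups were not checked in this way. For arrays there is no depth to give, so precision is limited by how many were run. Each mouse is a separate animal. The genes, the 8 lists of related pathways, the 10 lists of cell type and clock markers and the tests were chosen with earlier results of these data known. The text names all genes of the list, from each related pathway list genes among the 3 with the smallest p by diet or the 2 with the smallest p by strain, and the 10 other genes nearest to Hspa5. Alternatives with a Kupffer or pancreatic marker term, without the 2 mice that stood apart, and with clock or marker terms beside the block were chosen after seeing the data.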

Additional observations from a re-analysis of the deposited data

Results flagged for a closer look

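Within strains of 4 to 6 mice, single mice that stood far from the rest were looked for in 11 measures (the mean of the 36 genes after centring, and 10 genes), where the gap to the nearest mouse exceeded the 95% critical value of Dixon's test. Of 242 groups tested, 15 (6.20 percent) held such a mouse, and chance gives about 1 in 20.

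One HS mouse of CC028/GeniUnc was high in 4 measures. Its mean of the 36 genes was 0.28 (others up to 0.0014), Hspa5 was 8.68 (others up to 8.19), P4hb was 11.25 (others up to 10.91) and Ppib was 10.28 (others up to 9.95). The HP mouse of CC019/TauUnc with pancreatic acinar transcripts was high in Hyou1, at 8.26 against at most 7.79, and in Os9, at 9.55 against at most 9.40.

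The other mice stood apart in a single measure each. An HS mouse of CC036/Unc had a mean of the 36 genes of 0.52, above the others (up to 0.12), and an HP mouse of the same strain had a Herpud1 level of 9.88, below the others (from 10.29). Hspa5 was low in an HP mouse of CC011/Unc (7.77, others from 8.10), and Hyou1 was high in an HP mouse of CC030/GeniUnc (8.92, others up to 8.21). Os9 was low in an HS mouse of CC002/Unc (8.98), an HP mouse of CC037/TauUnc (9.01) and an HS mouse of CC071/TauUnc (9.06). P4hb was high in HS mice of CC041/TauUnc (11.16) and CC059/TauUnc (11.27).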

How the results depend on the processing

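The 10 genes called by diet became 4 without an expression filter, 3 with arrays centred on the median, 1 with the clock score and 3 with the Kupffer markers as a covariate. Leaving out each strain in turn gave 4 to 14. Under the other settings the count was 8 to 15. With strain as a block, 15 genes became 4 with the clock score and 4 with the Kupffer markers, and 13 to 17 without a strain. The strain count of 31 was 23 to 32 without a strain and at most 32 otherwise. Without an expression filter the strain calls of Manf, Calr, Ern1, Sec61a1, Ssr1, Spcs2 and Derl3 were lost, and none of the 36 genes was gained. The interaction called none in any fit. The count of positive relations to Hspa5 was 22 to 27, and the median share of variance between strains 0.191 to 0.26 without a strain. The shares of all genes called under these settings are not given here, so the shifts in count have no background. The causes of these shifts were not tested.

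Of 1224 refits of single genes by diet, 1077 kept their direction and side of the threshold and 15 changed sign, all in genes not called. Herpud1 by diet turned from 0.12 to -0.034 with the clock score. Edem1 by diet, near 0, was 0.019 with centred arrays, 0.0094 with the clock score, 0.0067 without the 2 mice that stood apart, 0.0049 without the 3 with pancreatic transcripts, and -0.013 to 0.021 without a strain. Spcs2 by diet was 0.016 with the clock score and 0.0018 with the Kupffer markers, Os9 by diet was -0.0037 with the Kupffer markers, and Erp44 by diet was 0.0019 with centred arrays. By replicate number, no paired analysis was possible because these numbers only count mice within a diet, and the diets were instead paired by strain, as the block above. The levels are relative within an array, and the time of day of collection and the array batch were not given in the sources used here.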

Other observations

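Some genes of the neighbouring lists differed among strains more than any of the 36 genes did. Serpina1a, a member of the alpha-1-antitrypsin family and a secreted client of the ER, had strain means from 5.62 in CC004/TauUnc to 8.80 in CC045/GeniUnc (F = 47.03, intraclass correlation 0.891), and near-identical copies of this gene make its level uncertain. Alg1, a mannosyltransferase of N-glycan assembly, ran from 5.52 in CC006/TauUnc to 6.77 in CC030/GeniUnc (F = 34.68). Sil1, the nucleotide exchange factor of BiP, ran from 7.33 in CC004/TauUnc to 8.23 in CC028/GeniUnc (F = 21.14), and Ero1b, a disulphide oxidase, from 5.27 in CC008/GeniUnc to 7.48 in CC045/GeniUnc (F = 21.04). By diet, Ero1b was lower on HP in 20 of 22 strains (-0.31 ± 0.12, limma adjusted p = 0.064, and 6.9e-06 with strain as a block), while Ero1a was higher in 20 of 22.

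The dimmer second clusters of 5 of the 36 genes gave HP minus HS differences of -0.12 for Ssr1, -0.09 for Derl2, -0.13 for Morf4l2, -0.15 for Spcs2 and 0.03 for Edem1, against -0.11, -0.10, -0.16, -0.04 and -0.001 in the brighter clusters.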
